A study of Mus musculus with 99 samples.

Results

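The 8 genes of one signalling family were described here in single hair cells of the mouse cochlea: the neurotrophins Bdnf and Ntf3, the Trk receptors Ntrk2 and Ntrk3, the neurotrophin receptor Ngfr, and the sorting receptors Sort1, Sorcs1 and Sorcs3. They are 8 of the 55291 gene symbols of the count table, of which 26782 had a read in any cell, and they were chosen by name, with the low Ntrk2 counts of one group and the high counts of the other already known. The study compared 32 wild-type outer hair cells (OHCs) of postnatal day 30, from Slc26a5-CreER/+; Ai9/+ mice, with 67 cells of postnatal day 42 from Slc26a5-CreER/+; Rosa26Tbx2/+ mice, all on C57BL/6. Slc26a5-CreER is an inducible Cre driven by the gene of the OHC motor protein prestin, Ai9 is a tdTomato reporter, and the Rosa26 allele gives ectopic expression of the transcription factor Tbx2. Per the labels, the cells with ectopic Tbx2 are OHCs that convert to inner hair cells (cIHCs). The titles were followed here, although the protocol text given for all cells speaks of picked inner hair cells that are endogenous and of iOHCs, so which cells it describes is unsure. Both kinds of cell carried tdTomato and were picked by hand, 1 cell per library of full-length cDNA. Genotype and age differed together, so they cannot be told apart, and no title names a natural inner hair cell.

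Neurotrophins are secreted growth factors of neurons. BDNF, the product of Bdnf, signals through the receptor tyrosine kinase TrkB, encoded by Ntrk2, and NT-3, the product of Ntf3, through TrkC, encoded by Ntrk3. The p75 receptor encoded by Ngfr binds all neurotrophins, and sortilin and its relatives of the Vps10 family, encoded by Sort1, Sorcs1 and Sorcs3, sort neurotrophins, their precursors or their receptors inside cells. In the cochlea, BDNF and NT-3 made in the sensory epithelium support the spiral ganglion neurons, which carry TrkB and TrkC and innervate the hair cells.

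Since the labels do not tie cells to animals, a group is 1 sample here: no test was made and no difference has a replicate check. Levels are CPM, counts scaled to the total count of the cell or, where pooled, of all cells of the group. Intervals are at 95% and cover counting error only, since several reads can stem from 1 amplified molecule. Total counts ran from 5656512 to 9287413 per OHC and from 4677682 to 13792672 per cIHC. A median of 6068.5 genes had reads in an OHC against 8546 in a cIHC, which bears on any share of cells with reads. Tbx2 had 3 counts in all OHCs together and reads in all 67 cIHCs, from 112.7 to 2643 CPM. All 9 genes of an OHC list had lower pooled levels in cIHCs and all 10 of an inner hair cell list had higher ones. Reads of Xist at 10 CPM or more were found in 4 OHCs and 55 cIHCs, and reads of Y-linked genes in 24 OHCs and 12 cIHCs, so the groups also differed in the share of cells from each sex.

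Sequences upstream of the members were taken from RefSeq (GRCm38.p6), which held 13 annotated starts for 6 of the 8 genes, 7 of them for Bdnf. Sort1 and Ntrk3 had no entry. Of these windows 2 are shown, each with the 250 bases before a start, 5′ to 3′ along the gene: that of Ntrk2, because the gene went from near absence in OHCs to reads in nearly every cIHC, and the one Bdnf start whose window held a searched motif.

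Ntrk2, chr13:58806319-58806568, plus strand: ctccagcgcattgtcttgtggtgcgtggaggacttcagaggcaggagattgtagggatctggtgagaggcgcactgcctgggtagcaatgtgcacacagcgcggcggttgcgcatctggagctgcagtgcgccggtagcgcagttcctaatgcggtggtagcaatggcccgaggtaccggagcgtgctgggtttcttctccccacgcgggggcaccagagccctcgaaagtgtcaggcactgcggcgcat

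Bdnf, chr2:109692186-109692435, plus strand: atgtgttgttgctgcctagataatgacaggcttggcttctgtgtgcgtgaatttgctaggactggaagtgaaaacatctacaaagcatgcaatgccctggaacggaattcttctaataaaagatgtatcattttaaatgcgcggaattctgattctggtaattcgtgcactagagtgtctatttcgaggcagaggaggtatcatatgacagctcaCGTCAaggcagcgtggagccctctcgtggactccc

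The capitals mark CGTCA, the reverse complement of the cAMP response core TGACG, a motif of CREB-type factors, which begins 35 bases before the start. That core, on either strand, was found in 1 of the 13 member windows and in 17.8% of the 32851 windows of all genes. A T-box core (AGGTGTGA, either strand), the motif of the Tbx2 family, was in 0 of the 13 and in 1.12% of all windows. A match is a description of letters and not a site in use, and the counts do not tell which Bdnf start was used.

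Ntrk2 and Ntrk3, the Trk receptor genes, were at or near 0 in OHCs and had reads in 66 and 39 of the 67 cIHCs. Ntrk2 lies on chromosome 13 (58806569 to 59133970, plus strand, GENCODE M21 on GRCm38, as all gene coordinates here). In OHCs it had 1 read in 1 cell, 0.123 CPM. In cIHCs its lowest value was 0, its median 178 CPM and its highest 671 CPM, with quartiles of 105 and 302 CPM. Of the 67 cIHCs, 66 had reads and lay above the highest OHC, 65 of them at 26.3 CPM or more; the other one held 0.165 CPM. The cIHC without Ntrk2 reads had 284 CPM of Ntrk3 and the highest Tbx2 level of all, 2643 CPM. Pooled Ntrk2 was 0.00413 CPM in OHCs and 226 CPM (224 to 227) in cIHCs, a log2 ratio of 15.74 (13.26 to 21.04) that rests on a single OHC read. This contrast served to choose the gene, so the ratio is only a description.

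Ntrk3, on chromosome 7 (78175959 to 78738012, minus strand), had 8 counts in OHCs, from 2 cells at 0.553 and 0.457 CPM. In cIHCs its lowest value was 0, its median 0.251 CPM and its highest 1638 CPM. The cells fell into separate ranges. Of the 67 cIHCs, 28 had no Ntrk3 read, 8 had traces of up to 2.35 CPM and 31 had 49.4 CPM or more, with no cell between. The 39 cells with reads, 58.2% of cIHCs (exact Clopper-Pearson interval 45.5 to 70.2), had a median of 284 CPM. Pooled Ntrk3 was 0.0331 CPM in OHCs and 272 CPM (270.5 to 273) in cIHCs, a log2 ratio of 13.01 (12.03 to 14.22), which became 14.24 with the top cell of either group left out. The pooled cIHC level of Ntrk3 came from fewer cells than that of Ntrk2. The levels of these genes are compared per length below.

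**Figure D1:**
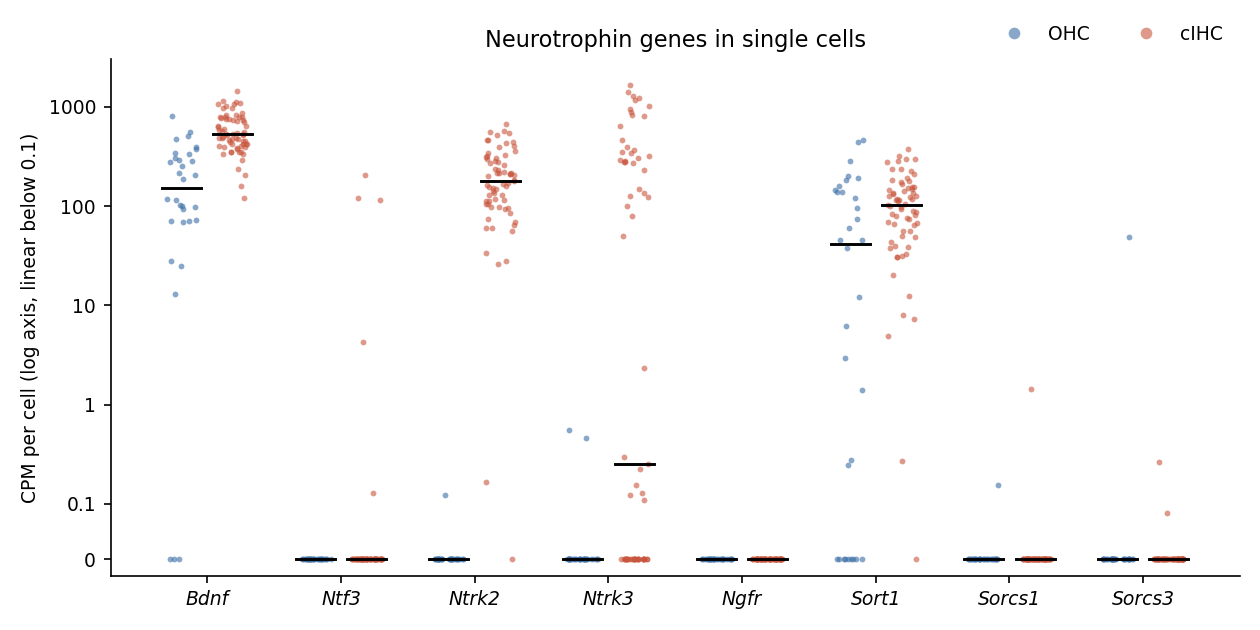
Level of each of the 8 genes in each of 32 OHCs and 67 cIHCs, as CPM on a log axis that is linear below 0.1; points are cells and bars are medians. Ntrk2 lies at 26.3 CPM or more in 65 cIHCs, whereas Ntrk3 leaves a gap between 2.35 and 49.4 CPM, with 36 cIHCs below it.

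Both Trk genes have several annotated isoforms, including truncated receptors without the kinase domain. GENCODE M21 lists 7 protein-coding transcripts of Ntrk2 and 6 of Ntrk3, and counts per gene do not tell them apart.

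How often genes of like level were detected was used to place these shares. Among the 593 other genes within 0.5 on the log2 scale of the pooled cIHC level of Ntrk3, the median share of cIHCs with reads was 100% and the 5th percentile 95.5%, and 0% of them had a lower share than Ntrk3. For Ntrk2, with reads in 98.5% of cIHCs, 14.3% of 733 genes of like level had a lower share. Thinning each cell to 5770000 reads, which kept 66 cIHCs, left 37 with Ntrk3 reads and 65 with Ntrk2 reads.

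**Figure D2:**
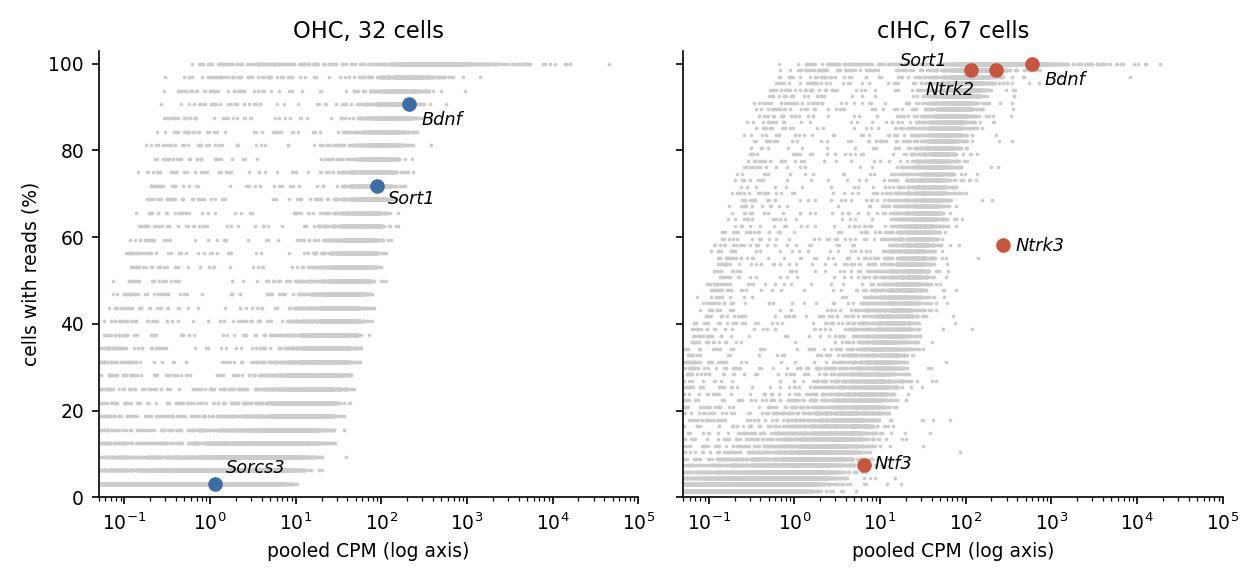
Share of cells with reads (%) against pooled CPM (log axis) for all genes with at least 0.05 CPM (grey) in the 32 OHCs and the 67 cIHCs, with the members above that level coloured. Ntrk3 stands at 58.2% in cIHCs, to the right of the genes of like share, and Ntrk2 and Ntrk3 are missing from the OHC panel because their pooled levels were 0.00413 and 0.0331 CPM.

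The Trk genes were set against each other over the 67 cIHCs. Reads of both were present in 38 cells, of Ntrk2 alone in 28 and of Ntrk3 alone in 1. The Spearman correlation of their CPM was 0.45 over all cIHCs, 0.41 over the 55 cells with Xist reads and 0.66 over the 12 with Y-linked reads. These correlations describe cells that share a source, and no p is given. With Tbx2 the correlation was 0.43 for Ntrk3 and 0.13 for Ntrk2. The latter is too weak to be a finding, and the former is only a description.

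Of 3937 other genes, kept where the pooled level reached 50 CPM and 75% of cIHCs had reads, the 5 whose level over the 67 cells was most like that of Ntrk3 were Calb1, Gm6831, Enkur, Gapdh and Gm13394, with Spearman correlations of 0.76, 0.68, 0.65, 0.64 and 0.61. The 5th and 95th percentiles over all these genes were -0.32 and 0.35. Calb1 encodes the calcium buffer calbindin. Its cIHC values ran from 0 through a median of 6394 CPM to 26542 CPM, against 0, 157 and 2543 CPM in OHCs. The correlation of Ntrk3 with Calb1 was 0.78 in cells with Xist reads, 0.75 in cells with Y-linked reads and 0.78 after thinning. Gapdh, a glycolytic enzyme gene, has many near-identical copies in the genome, among which the counting could split reads.

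Other measures moved with Ntrk3 among the cIHCs. Its correlation with the number of genes with reads was 0.47, and that with total counts 0.34. The numbers in the titles moved with it too, though the labels do not say what they stand for. None of the 13 cIHCs numbered 13 to 25 had an Ntrk3 read, against 8 of the 12 numbered 1 to 12, which were the cells with Y-linked reads, and 31 of the 42 numbered 26 to 67. These blocks were chosen after the values were seen. Ntrk2 reads were present in 12, 13 and 41 cells of the blocks numbered 1 to 12, 13 to 25 and 26 to 67. The median number of genes with reads was 7684 in the cells numbered 13 to 25, against 8360.5 and 8672.5 in the blocks before and after, and their median Calb1 level was 686 CPM against 5291 and 9414 CPM. Median Tbx2 was 312 CPM in the cells numbered 13 to 25, against 445 and 672 CPM in the blocks before and after. Within the 42 cells numbered 26 to 67 the correlation of Ntrk3 with Calb1 was 0.72 and that with Ntrk2 0.32. In the same cells that with Tbx2 was 0.36, and that with the number of genes with reads 0.15. The part of depth in the spread of Ntrk3 was not tested.

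**Figure D3:**
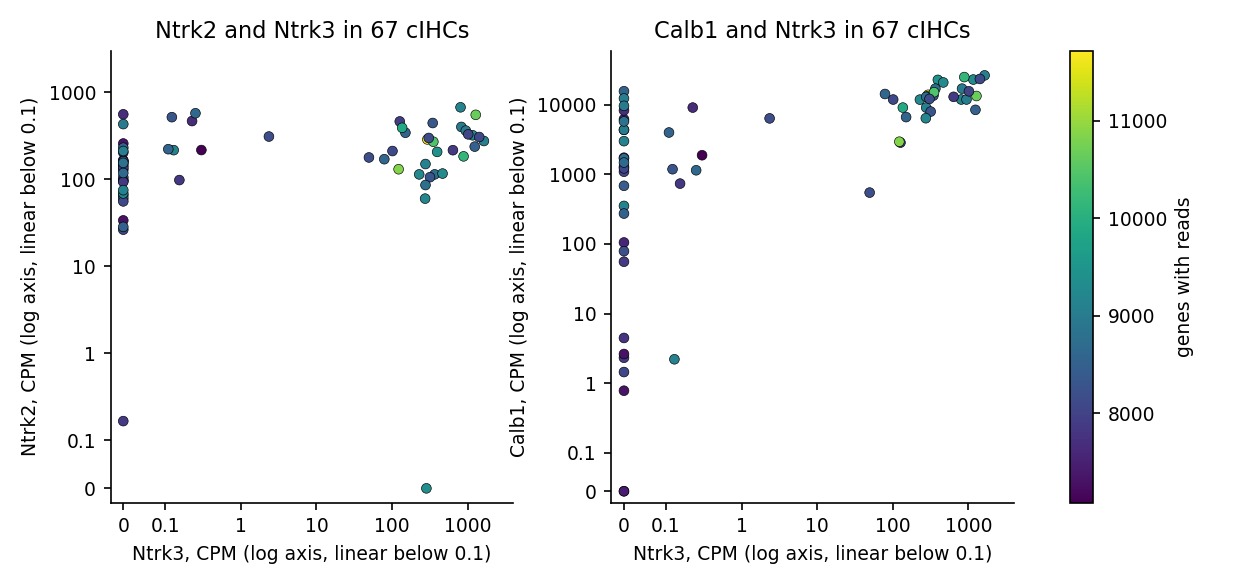
Ntrk2 (left) and Calb1 (right) against Ntrk3 in each of 67 cIHCs, as CPM on log axes that are linear below 0.1; colour gives the number of genes with reads. Most cells with 49.4 CPM or more of Ntrk3 lie high on the Calb1 axis, and Ntrk2 reads occur with Ntrk3 reads in 38 cells and without them in 28.

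The ligand genes Bdnf and Ntf3 differed from the receptors and from each other. Bdnf, on chromosome 2 (109674700 to 109727007, plus strand), was present in both kinds of cell. OHC values ran from 0 through a median of 154 CPM to 809 CPM, with reads in 29 of 32 cells. In cIHCs they ran from 119.8 CPM through a median of 527 CPM to 1445 CPM, with reads in all 67. The ranges overlapped: 12 cIHCs lay above the highest OHC, and 2 OHCs lay above the cIHC median. A cIHC had the higher Bdnf level in 89.8% of the 2144 pairs of 1 cIHC and 1 OHC. Pooled Bdnf was 212 CPM (210.3 to 214) in OHCs and 603 CPM (600.5 to 605) in cIHCs, a 2.84-fold higher level and a log2 ratio of 1.51 (1.49 to 1.52). The ratio was 1.89 among cells with Xist reads and 1.20 among cells with Y-linked reads, so the direction was the same in both sets of cells. Bdnf shares 896 exon bases with the antisense gene Gm45346, which had 0 counts in OHCs and 1306 in cIHCs against 327805 of Bdnf, and use of strand in the counting is not given in the sources used here.

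Over the 67 cIHCs Bdnf varied apart from the other members, with Spearman correlations of -0.02 with Ntrk2, 0.02 with Ntrk3 and 0.00028 with Sort1. The 5 genes most like Bdnf among 3936 were Agpat3, Zfp719, 4932438A13Rik, Hebp2 and Cwc25, with correlations from 0.37 to 0.44. The 5th and 95th percentiles were -0.20 and 0.19.

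Ntf3, on chromosome 6 (126101412 to 126166910, minus strand), had no read in any OHC, so the share of OHCs with reads has a limit of 9.38% (3 of 32 cells) and an exact Clopper-Pearson upper limit of 10.9%. In cIHCs it had reads in 5 of 67 cells, 7.46% (2.47 to 16.6), at 0.129, 4.23, 116, 121 and 205 CPM. All 5 also had Ntrk2 and Ntrk3 reads, but Ntrk2 had reads in 66 of the 67 cIHCs and Ntrk3 in 39. The cell with 0.129 CPM of Ntf3 had only 0.129 CPM of Ntrk3, so nothing is read from this overlap. The highest cell held 46.8% of the 3498 counts. Pooled Ntf3 was 6.43 CPM in cIHCs, at least 519-fold higher than a floor of 3 counts over the OHC group, a log2 ratio of at least 9.02, or at least 8.13 with the top cell left out. Both median levels were 0, so the typical cIHC had no Ntf3 read, as the typical OHC had none.

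Ngfr, on chromosome 11 (95568818 to 95587735, minus strand), had 0 counts in both groups. The same limits on the share of cells with reads are 9.38% and 10.9% for OHCs, and 4.48% (3 of 67 cells) and 5.36% for cIHCs.

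Of the Vps10 sorting receptors, Sort1 was present in both groups and the others were nearly absent. Sort1 encodes sortilin and lies on chromosome 3 (108284082 to 108361511, plus strand). OHC values ran from 0 through a median of 41.6 CPM to 463 CPM, and cIHC values from 0 through 103 CPM to 375 CPM. The 2 highest Sort1 values of all belonged to OHCs, although 9 of 32 OHCs and 1 of 67 cIHCs had no read. Pooled levels were 89.0 and 116 CPM, a log2 ratio of 0.38 (0.36 to 0.40), close to the median of 0.25 over all genes with at least 10 CPM. The ratio was 2.00 over the 4 OHCs and 55 cIHCs with Xist reads, and it turned to -0.18 over the 24 OHCs and 12 cIHCs with Y-linked reads. The ratio of median CPM per cell was 1.31, and a cIHC had the higher Sort1 level in 65.7% of the 2144 pairs. Of 11 alternative settings 1 turned the ratio, that of the cells with Y-linked reads. As cells with Xist and with Y-linked reads differed in sign, no direction is given for Sort1. Its exons share 338 bases with the antisense gene Gm12523, which had 0 and 17 counts. In OHCs its level had a Spearman correlation of 0.55 with the number of genes with reads over the 32 cells.

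Sorcs3, on chromosome 19 (48206025 to 48805505, plus strand), had 278 counts in OHCs, all in 1 cell at 49.1 CPM, and 3 counts in 2 cIHCs. The log2 ratio of -7.70 (-9.99 to -6.14) therefore rests on that OHC, and leaving that cell out left no ratio. Sorcs1, on the same chromosome (50143299 to 50678646, minus strand), had 1 count in OHCs and 13 counts in cIHCs, all in 1 cell at 1.44 CPM. Its log2 ratio of 2.53 (-0.20 to 7.94) rests on 1 cell of each group, so no direction is given.

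A log2 ratio of 1 or more in size and a pooled level of at least 10 CPM in either group were used for counts of genes. At that level 4 of the 8 members were left, Bdnf, Ntrk2, Ntrk3 and Sort1, and 3 of them were past a ratio of 1 and higher in cIHCs. Over all 10041 genes with that level, 26.3% were past it and higher and 14.3% were past it and lower. Since the members were chosen with this contrast known, nothing is read from the count. The other 4, Ntf3, Ngfr, Sorcs1 and Sorcs3, were below 10 CPM in both groups. With no minimum level 5 of the 7 members with a ratio were higher and 1 was lower, where 42.6% and 18.8% of 23306 genes were. At a log2 ratio of 2 and 10 CPM, 2 members were higher and 0 lower, where 12.7% and 6.31% of the 10041 genes were.

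**Figure D4:**
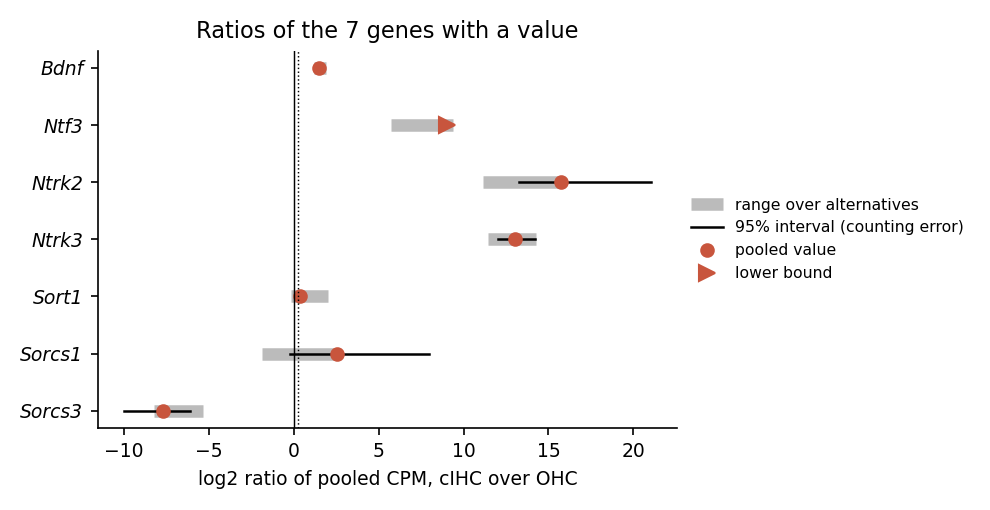
Log2 ratio of pooled CPM, cIHC over OHC, of the 7 members with a value: points with their 95% counting intervals, a triangle for the lower bound of Ntf3, grey bars for the range over the alternative settings, and a dotted line at the median of 0.25 over genes with at least 10 CPM. Ntrk2 and Ntrk3 lie at 15.74 and 13.01, Bdnf at 1.51, Sort1 near 0 and Sorcs3 at -7.70.

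Levels of different genes can be compared only per length, here as pooled CPM per kilobase of all annotated exons. In cIHCs Bdnf led with 96.9, followed by Sort1 with 15.3, Ntrk2 with 11.7, Ntrk3 with 9.01 and Ntf3 with 3.75, and the other genes were under 0.003. In OHCs Bdnf had 34.1 and Sort1 11.8. On this scale Bdnf was above Ntrk2 and above Sort1 in each of the 67 cIHCs. Sort1 and Ntrk2 did not separate: Sort1 was the higher in 42 cells and Ntrk2 in 25. With the length of the longest coding transcript, chosen after seeing the data, Ntrk2 came to 25.8 per kilobase and Sort1 to 16.9, and Ntrk2 was the higher in 44 cells. Ntrk2 was above Ntrk3 in 48 cells, or 52 by the second length.

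Markers of other cells that carry Trk receptors were compared beside these genes. A list of 12 spiral ganglion neuron genes summed to a median of 9.83 CPM per OHC (0 to 386) and 342 CPM per cIHC (52.6 to 815). In cIHCs 3 of the 12 reached 10 CPM pooled, Nefm with 176 CPM, Nefl with 124 CPM and Rbfox3 with 48.2 CPM, while Prph, Th, Runx1 and Scn4b were among those with no read. The 8 glia genes summed to medians of 0.660 CPM in OHCs (0 to 370) and 5.79 CPM in cIHCs (0 to 261), with Pmp22 and Fabp7 at 0 in cIHCs. The 10 supporting cell genes had a median sum of 0 in both groups, with highest cells at 897 CPM among OHCs and 1013 CPM among cIHCs. Sums of 8 mesenchyme and vessel genes had medians of 0.146 and 0.135 CPM (highest 300.5 and 1146 CPM), and those of 8 blood and macrophage genes 0 and 2.97 CPM (highest 67.0 and 337 CPM). Leaving out the 4 OHCs and 7 cIHCs with the most neuron, glia and supporting cell marker counts gave log2 ratios of 15.53 for Ntrk2, 12.96 for Ntrk3, 1.46 for Bdnf and at least 8.56 for Ntf3.

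The rest of the pathway was read from 98 further genes. At the level of 10 CPM 71 were left, of which 16 were past a log2 ratio of 1 and higher in cIHCs, 10 were past it and lower, and 45 lay between. The shares over all genes were the 26.3% and 14.3% given above, and they stand beside the counts of each list below too. The level can be met in 1 group alone, as by Mmp9, Shc2, Rps6ka2 and Arc in cIHCs and by Sorl1, Pcsk6 and Plat in OHCs. Nothing is read from the list counts. The median ratio of the 71 genes was 0.28, beside 0.25 over all 10041. With a TMM scaling factor, which shifts the median of all genes by -0.19, 15 of 70 were higher and 14 lower. Under that factor 21.7% of 10025 genes were higher and 18% lower.

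Of the remaining ligands and sorting receptors, Sorcs2 had no read in any cell of either group. Ntf5, the gene of the other TrkB ligand, had 829 counts in 1 OHC, 146.6 CPM there, and 22 counts in 2 cIHCs. Both fall outside the rule for named genes and were named after their values were seen. Sorl1, the Vps10 family receptor also called SORLA, went the other way from Ntrk2: it had reads in 25 of 32 OHCs, with a pooled level of 57.3 CPM, and in 8 of 67 cIHCs, with 3.79 CPM. Its log2 ratio was -3.92 (-3.99 to -3.85), and 1 cIHC held 59.4% of the cIHC counts.

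Of 11 genes for processing and cleavage of proneurotrophins, 7 had the level, 1 was higher and 2 were lower. Mmp9, a matrix metalloprotease, had no read in OHCs and reads in 50 of 67 cIHCs, with a pooled level of 55.6 CPM and a log2 ratio of at least 12.13. Pcsk6, a proprotein convertase, went from 38.3 to 2.00 CPM, and 1 cell held 77.6% of its cIHC counts. Plat, tissue plasminogen activator, went from 53.7 to 4.77 CPM. Furin, the convertase of many growth factors, had a ratio of -0.70, within the limits.

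Among 26 adaptor and trafficking genes of Trk receptors, 22 had the level, 4 were higher and 3 lower. Shc2 had no read in OHCs and 43.5 CPM in cIHCs, with reads in 51 cells and a log2 ratio of at least 11.78. Its exons overlap those of Gm47163 on the other strand, which had 14 counts in OHCs and 12551 in cIHCs, so its value is uncertain. Plcg1, the phospholipase that binds activated Trk receptors, went from 1.38 to 20.7 CPM, a ratio of 3.91, and is likewise uncertain through an overlap with Zhx3 on the other strand. Sh2b2, an adaptor, had the lowest ratio, -4.46, from 24.6 to 1.12 CPM, with reads in 3 cIHCs. Rapgef1, an exchange factor for Rap1, had a ratio of -1.76. The Trk scaffold Kidins220 was present in 65 of 67 cIHCs at a ratio of 0.58.

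For p75 partners and the proteases that cleave it, 9 of 13 genes had the level, 4 were higher and 0 lower. Maged1, which encodes the p75 partner NRAGE, went from 6.30 to 61.8 CPM, a ratio of 3.29, with 78.8% of the OHC counts in 1 cell. Adam17, a sheddase, had a ratio of 2.44 and overlaps Iah1 on the other strand, so it is uncertain. The kinase cascade kept its median at 0.30, with 25 of 29 genes at the level, 3 higher and 2 lower. Rps6ka2 had a ratio of 11.53 (9.67 to 14.57), from 2 OHC counts to 24.4 CPM in cIHCs. Map2k5, the kinase of ERK5, had 2.85, and Rps6ka5 and Pik3cb had -2.13 and -1.62. Rps6ka2 and Rps6ka5 encode kinases that act below MAP kinases, and Rps6ka5 is uncertain, since it shares exon bases with Gm49703 on the same strand.

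The 14 response and feedback genes, which many growth factors and other stimuli induce, had a median of 1.42 over the 7 with the level. Of these 4 were higher and 2 lower, where 26.3% and 14.3% of all genes with the level were. That median is the ratio of Nr4a1, a nuclear receptor gene named after its values were seen, for which 1 cell of either group held 70.9% of the OHC and 58.6% of the cIHC counts. With the top cell of each gene left out, the list median was 2.37. That setting also raised the median over all genes, from 0.25 to 0.50. Arc had no read in OHCs and 15.2 CPM in cIHCs, from 20 of 67 cells, a ratio of at least 10.26. Egr1 had a ratio of 4.28, and 98.4% of its OHC counts lay in 1 cell. Spred1 and Dusp6, feedback inhibitors of the MAP kinase pathway, were lower, at -3.18 and -1.10.

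Single cells moved several of these ratios. Leaving out the top cell of each gene also raised the median over all genes, from 0.25 to 0.50. The share of all genes past 1 and higher rose from 26.3% to 35%, so part of such a rise is general. With the top cell of each gene left out, Dusp6 came to -0.95 and was no longer past 1, Egr1 to 10.11, Maged1 to 5.40, Adam17 and Map2k5 to 4.14 each, and Plcg1 to 4.79. Among the lower genes Sorl1 came to -5.01, Pcsk6 to -6.13 and Sh2b2 to -5.90. Rps6ka2 was left with a bound of at least 10.56.

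**Figure D5:**
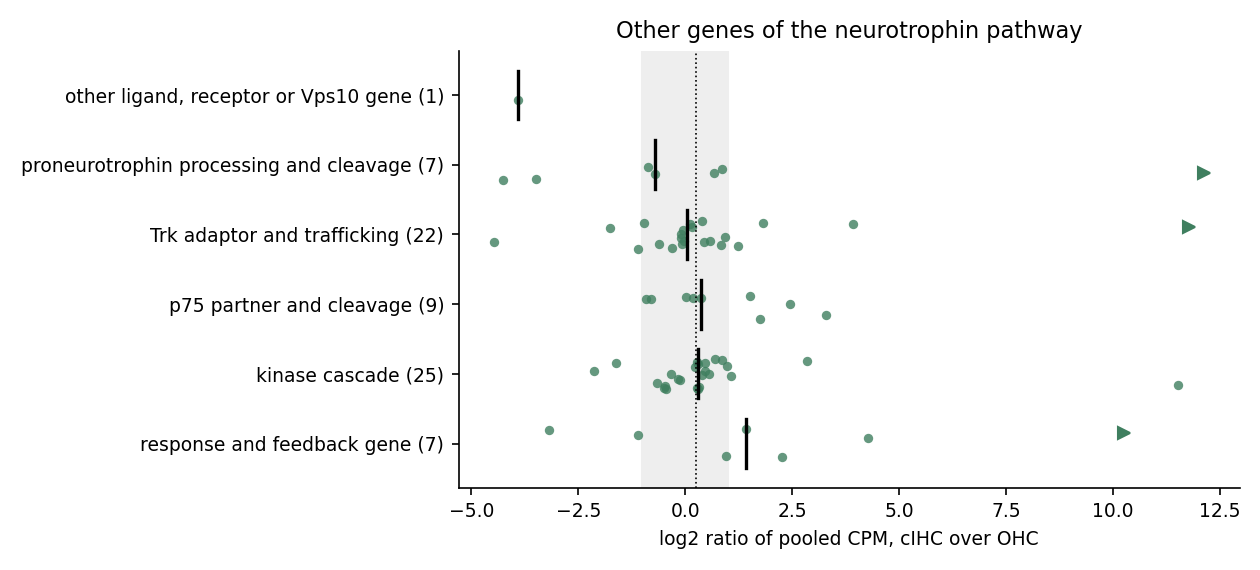
Log2 ratio of pooled CPM, cIHC over OHC, of the 71 other pathway genes with at least 10 CPM in either group, by list (number of genes in brackets); triangles are lower bounds, black bars list medians, the grey band the ratios between -1 and 1, and the dotted line the median of 0.25 over all genes. Most genes of the adaptor and kinase lists lie in the band, with Shc2, Rps6ka2, Mmp9 and Arc far to the right.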

How the data were processed

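The authors deposited 1 table of whole-number read counts for 55291 gene symbols and 99 cells; 0 columns belonged to no sample. Per the labels' protocols, cDNA was made with the Smart-Seq HT kit and tagmented with the TruePrep kit. HISAT2 2.2.1, StringTie 2.2.1, featureCounts 2.0.1 and mm10 are named in the submitters' processing notes, with no role. Annotation and filters are not given in the sources used here.

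Cells were grouped by title and all 99 were used. Picked cells were not searched for doublets. No pair of cells within a group had identical counts. Counts were summed per group and divided by the group's total (242054710 and 544012348) to pooled CPM; differences are log2 ratios, cIHC over OHC. A ratio was given only where a sum exceeded 3 counts, and a sum of 0 was set to 3 counts over the group, giving a bound. Intervals at 95% are exact Poisson for levels, exact conditional binomial for ratios and Clopper-Pearson for shares. Gene models and exon overlaps came from GENCODE M21, which holds 96.4% of the symbols and need not be the authors' annotation.

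The members, gene lists, named genes and alternatives were chosen with earlier results of these data known. Within each pathway list the 2 highest and 2 lowest ratios past 1 are named; Furin, Kidins220, Ntf5 and Sorcs2 were added after their values were seen. Some genes of the lists are not reported here. The genes most like a member were ranked for Ntrk3 and for Bdnf, the member with the highest cIHC median. Alternatives were mean or median CPM per cell, each gene without its top cell, a TMM factor (edgeR 4.0.16, R 4.3.3), median-of-ratios scaling, totals without mitochondrial or the most abundant genes, cells with Xist or with Y-linked reads, cells low in foreign markers, thinned cells, no minimum level and a ratio of 2. The ratio step was tested on simulated data. Tables were made in Python 3.11.15 with pandas 2.3.3, numpy 2.4.6 and scipy 1.17.1, and figures with matplotlib 3.10.9.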

Additional observations from a re-analysis of the deposited data

How the results depend on the processing

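No paired analysis was possible because title numbers count cells within 1 group, tie no OHC to a cIHC, and no result here has a test. Bdnf kept its direction under all 11 alternatives (log2 ratios from 1.20 to 1.89). Ntf3, Ntrk2 and Ntrk3 kept theirs under the 10 that gave a value (at least 5.76 to 9.40, 11.13 to 15.79 and 11.45 to 14.24), and the lowest values are bounds from the cells with Xist reads, whose 4 OHCs had no read of these genes. Sorcs3 was lower under the 7 that gave a value (-8.22 to -5.36). All of these keep the 1 OHC that held all its OHC counts, so they do not check its direction. Sort1 turned to -0.18 among cells with Y-linked reads, and Sorcs1, with no read in the 4 OHCs there, to a bound of at least -1.89 among cells with Xist reads, which gives no direction; the cause was not tested for Sort1. With no minimum level, 5 members were higher and 1 lower of the 7 with a ratio, beside 42.6% and 18.8% of 23306 genes. Of the 89 pathway genes with a ratio there, 24 were higher and 17 lower. Among cells with Xist reads, with only 4 OHCs, 25 of 70 pathway genes were higher and 13 lower, where 40.7% and 21.4% of 10124 genes were. With a ratio of 2 the pathway counts were 10 higher and 6 lower of 71, since fewer genes pass it. Over all 10041 genes with the level, 12.7% and 6.31% were. The median of CPM per cell gave a ratio for only 36 pathway genes, 20 higher and 2 lower, where 44.6% and 9.57% of 4115 genes were, and none for Ntf3, Ntrk2, Ntrk3, Sorcs1 and Sorcs3. The ratio of Sorcs1 is limited by its few counts, 1 and 13.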

Other observations

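Over all cells, 19 of 32 OHCs had reads of 2 of the 8 genes, and the range was 0 to 3 genes. Of the 67 cIHCs 33 had reads of 4 genes and 27 of 3, with a range of 2 to 6. Over the whole table a median of 6068.5 genes had reads in an OHC against 8546 in a cIHC. Ntrk2 was chosen with its contrast known, so nothing is read from these counts.

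The 5 genes whose CPM over the 67 cIHCs was most like that of Ntrk2, a list made after the values were seen, were Mlf1, Mindy4b-ps, Fam216a, Rph3al and Atp2b1, with Spearman correlations from 0.40 to 0.45 beside 5th and 95th percentiles of -0.23 and 0.25 over 3936 genes. Calb1, the gene most like Ntrk3, had a correlation of 0.39 with Ntrk2, and of 0.54 with the number of genes with reads, which were 0.20 and 0.29 within the 42 cells numbered 26 to 67. Enkur, also near Ntrk3, had reads in 7 of 32 OHCs and 54 of 67 cIHCs, at pooled levels of 12.0 and 103 CPM. Ntf3 had reads in 7.46% of cIHCs, where 1581 genes of like pooled level had a median of 23.9%, and 0.696% of those genes had a lower share.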
